A study of Mus musculus with 4 samples.

Results

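The 10 genes described here mark adipocytes and their precursors, and they were chosen by name: *Pparg*, *Adipoq*, *Fabp4*, *Lpl*, *Cd36*, *Plin1*, *Cfd*, *Dlk1*, *Pdgfra* and *Lepr*. They were followed because the cells measured had been grown on OP9, a stromal cell line from mouse bone marrow. OP9 supports B cell development and can turn into adipocytes. The aim was to see whether preadipocyte or adipocyte transcripts varied between the samples. The array carried 15 probes for these 10 of 31829 gene names. Of these 15 probes, 9 probes of 7 genes were bright enough to be tested, and none of them passed the test between the viruses. The level that varied most between the samples was that of *Dlk1*, about 4-fold lower in 1 of the 2 *Mir195* samples than in the other. *Lpl* and *Pparg* were higher in that same sample, by differences that 3.22% to 14.6% of all tested probes matched or exceeded. Of the 9 probes, 6 were lowest and 3 highest in that sample, which was at an end for 68.2% of all tested probes.

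Lin- cells, that is cells of the mid-gestation mouse fetal liver left after cells with mature lineage markers are removed, were taken from *Ebf1*-/- embryos, which lack the B cell transcription factor EBF1 in all 4 samples. They were infected with the retrovirus MDH1-PGK-GFP, called EMPTY, or with the same virus carrying *Mir195*, a segment cloned from human cells that gives the miRNA miR-195. All cultures were kept on OP9 in medium with SCF, IL-7 and Flt-ligand at 10 ng/mL each, the time for this assay being the general culture time of the methods. Each virus had 2 samples with 1 single-dye array each, and all 4 arrays lay on 1 slide. No source used here says whether the 2 samples of a virus came from separate embryos or cultures, so p-values measure only the spread between these samples, which may be technical. No removal of OP9 cells or sort before RNA extraction is described for the arrays, so the RNA may hold both the blood cells and the stroma.

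Adipocytes form from fibroblast-like precursors. PPARG is the transcription factor that drives this step and keeps the adipocyte state, and its target genes include those for taking up fatty acids, binding them and storing them in the lipid droplet. *Dlk1* (Pref-1) is made by preadipocytes and goes down as they mature, but it is also made by the hepatoblasts of the fetal liver. *Pdgfra* and *Lepr* mark stromal cells of the bone marrow that can become adipocytes. Several of these genes are not particular to fat: *Lpl*, *Cd36*, *Fabp4* and *Pparg* are also used by macrophages, and *Fabp4* and *Cd36* by endothelial cells.

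The probes are 60 bases long, and each reads a single stretch of its transcript. The stretches read by 5 of them are shown because the results turn on how these probes differ: 2 probes of *Lepr* that are annotated to the same transcript and gave very different signals, and 1 probe each of *Dlk1*, *Lpl* and *Adipoq*, all 3 measured above background on every array. They are the array maker's sequences, 5′ to 3′.
Lepr A_55_P2177910: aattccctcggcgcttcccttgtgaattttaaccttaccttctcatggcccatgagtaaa
Lepr A_55_P2177911: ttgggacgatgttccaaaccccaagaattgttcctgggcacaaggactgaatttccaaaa
Dlk1 A_55_P2105371: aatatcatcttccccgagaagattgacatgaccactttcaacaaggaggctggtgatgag
Lpl A_52_P257812: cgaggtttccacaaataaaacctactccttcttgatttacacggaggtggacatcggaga
Adipoq A_51_P458451: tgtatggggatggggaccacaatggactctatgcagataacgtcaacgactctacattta
The mature miRNA of the *Mir195* virus is shown as its mouse form in RefSeq, with the seed, bases 2 to 8, in capitals.
mmu-miR-195a-5p: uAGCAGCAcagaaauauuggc

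In the RefSeq annotation of GRCm38.p6, *Fabp4* lies at chr3:10204342-10208616, *Lepr* at chr4:101717137-101815352, *Cd36* at chr5:17781690-17888959, *Pdgfra* at chr5:75151322-75198206 and *Pparg* at chr6:115360879-115490404. *Plin1* lies at chr7:79721164-79732904, *Lpl* at chr8:68880555-68906932, *Cfd* at chr10:79890853-79892655, *Dlk1* at chr12:109452485-109463336 and *Adipoq* at chr16:23146536-23157968. The 10 genes thus lie on 9 chromosomes, and only *Cd36* and *Pdgfra* share 1. All 15 probes with a transcript of these genes were named for them, and no probe of another name carried one.

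Levels are given on the log2 scale relative to the 75th percentile of the same array, so 0 is the signal of a probe brighter than 75% of all probes. A probe was called well above background where the scanner software flagged the majority of its spots so. This was the case for 23678 to 24700 of 39429 probes per array, no spot was saturated, and the signal at the 75th percentile ranged from 908 to 1137 intensity units. Levels of different probes were not compared as amounts of transcript, since each probe binds with its own strength. Summed levels of a list are given to compare arrays only, and bright probes weigh most in them.

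The test between the viruses covered 23722 probes, each of them well above background on the 2 arrays of 1 virus or of both and free of outlier spots. With limma and Benjamini-Hochberg adjustment, 0 of them passed an adjusted p of 0.05 (0% called), the lowest value being 0.0995. Before adjustment, 1988 probes had a p under 0.05 (8.38%), and none of them was a probe of the 10 genes. The t-test of the methods was run on the log2 ratios of same-numbered samples, although the labels state no pairing. It gave 0 calls after adjustment (lowest adjusted p = 0.692, t-test) and 1139 before it, with none among the 9 probes. With only 2 ratios per probe this test can hardly pass after adjustment, so its 0 calls add nothing to those of limma. The levels of all 15 probes are shown in the plot by array.

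**Figure D1:**
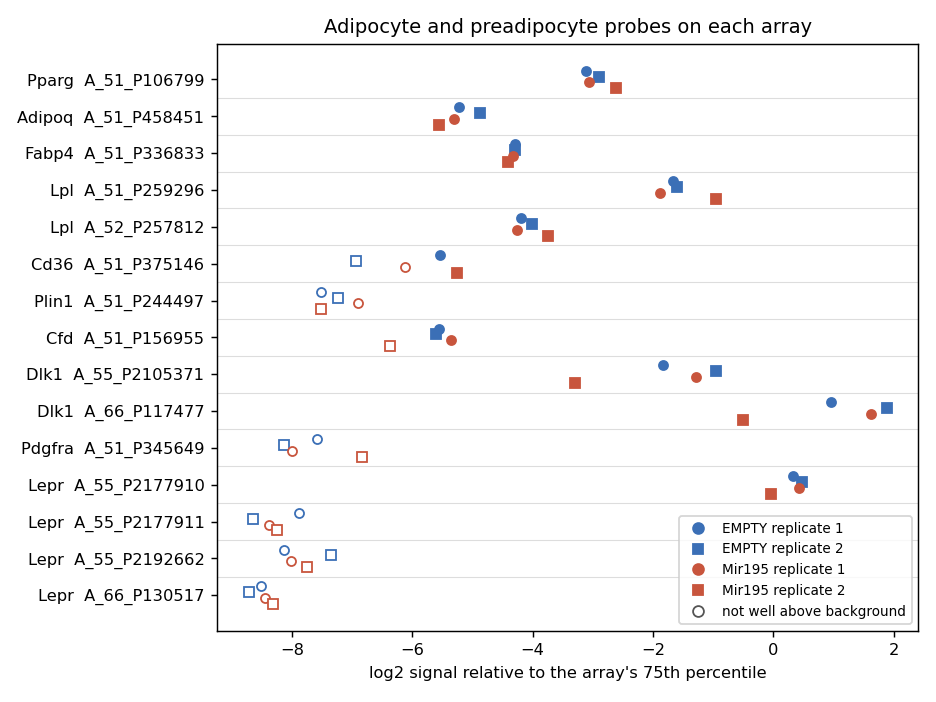
Log2 signal relative to the array's 75th percentile for the 15 probes of the 10 genes, with 1 point per array. Blue is EMPTY and red is *Mir195*, circles are replicate 1 and squares replicate 2, and open symbols are probes not well above background on that array. Both *Dlk1* probes and *Cfd* sit lowest on *Mir195* replicate 2, and *Lpl* and *Pparg* sit highest on it.

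*Pparg*, the adipogenic transcription factor, was present in every sample. Its probe, A_51_P106799, was printed in 10 spots on each array, and all of them were well above background on all 4 arrays. The mean level was -3.12 and -2.89 on the EMPTY arrays against -3.07 and -2.61 on the *Mir195* arrays. *Mir195* replicate 2 was the highest, and the groups overlapped. A difference as large between the 2 *Mir195* arrays was found for 14.6% of all tested probes. The SD between the spots of 1 array was 0.055 to 0.113, which covers the reading of the spots alone and not labelling, hybridisation or scaling. Single spots overlapped with those of EMPTY replicate 2, which reached -2.79 against a lowest spot of -2.87 on *Mir195* replicate 2. The log2 fold change of *Mir195* over EMPTY was 0.16 ± 0.20 (SE, 95% interval -0.37 to 0.69, limma adjusted p = 0.911), and it turned to -0.067 without *Mir195* replicate 2.

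The adipokines, which fat cells secrete, were dim. *Adipoq* encodes adiponectin, and its probe gave -5.23 and -4.89 on the EMPTY arrays against -5.30 and -5.56 on the *Mir195* arrays, corresponding to 30.2, 35.1, 23.0 and 19.7 intensity units. Both *Mir195* arrays lay below both EMPTY arrays. The log2 fold change was -0.37 ± 0.18 (95% interval -0.84 to 0.10, limma adjusted p = 0.690). Signals this close to background depend on how background is removed and on the offset added. With normexp correction of the raw spot signal and an offset of 50 the value was 0.14, that is, in the other direction. With that correction *Plin1*, not well above background on any array, also read higher with *Mir195*. It read -4.01 and -3.86 on the EMPTY arrays against -3.58 and -3.56 on the *Mir195* arrays. The turn of sign was therefore not read as a rise of *Adipoq*. *Cfd* encodes adipsin, a complement protease made in large amounts by mature fat cells. Its level was -5.56 and -5.61 on the EMPTY arrays against -5.36 and -6.37 on the *Mir195* arrays. Only *Mir195* replicate 2 was apart, and there the probe was not well above background. The log2 fold change of *Cfd* was -0.28 ± 0.35 (limma adjusted p = 0.909), and it was 0.22 both with normexp correction and without *Mir195* replicate 2.

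*Plin1*, the protein that coats the lipid droplet of mature adipocytes, did not stand well above background on any array. Its processed signal was 6.17 and 6.91 intensity units on the EMPTY arrays against 7.59 and 5.06 on the *Mir195* arrays, beside 66.5 to 69.7 units of uncorrected spot signal. No level can be given for *Plin1* in either group, and no fold was computed.

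The genes of fatty acid handling differed in how they varied between the samples. *Lpl* encodes lipoprotein lipase, which frees fatty acids from circulating lipids. Probe A_51_P259296 gave -1.67 and -1.60 on the EMPTY arrays against -1.88 and -0.95 on the *Mir195* arrays. Probe A_52_P257812 gave -4.19 and -4.01 on the EMPTY arrays against -4.27 and -3.74 on the *Mir195* arrays. With both probes *Mir195* replicate 1 was the lowest and replicate 2 the highest of the 4 arrays, and the EMPTY arrays lay between them. Replicate 2 exceeded replicate 1 by 1.90-fold and 1.44-fold within *Mir195*, against 1.05-fold and 1.13-fold within EMPTY. Differences as large between the 2 *Mir195* arrays were found for 3.22% and 11.3% of all tested probes. The fold changes between the viruses were 0.22 ± 0.32 and 0.10 ± 0.21 on the log2 scale (limma adjusted p = 0.925 and 0.952), and without *Mir195* replicate 2 they turned to -0.25 and -0.165.

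*Fabp4* encodes the fatty acid binding protein of adipocytes, and it was the steadiest of the 9 probes. Its level was -4.30 on both EMPTY arrays against -4.34 and -4.41 with *Mir195*, a range of 0.12. The *Mir195* arrays lay below those of EMPTY, and the log2 fold change was -0.08 ± 0.12 (95% interval -0.38 to 0.23, limma adjusted p = 0.927). With normexp correction it was 0.19, in the other direction. *Cd36*, a fatty acid receptor, was well above background on EMPTY replicate 1 at -5.54 and on *Mir195* replicate 2 at -5.27, and not on the other array of either virus, where it was -6.94 and -6.13. Since neither virus had it on both arrays, *Cd36* was not tested.

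*Dlk1* differed most between samples. Probe A_66_P117477 gave 0.95 and 1.88 on the EMPTY arrays against 1.63 and -0.51 on the *Mir195* arrays, that is 2195, 3826, 2803 and 654 intensity units. Probe A_55_P2105371 gave -1.84 and -0.95 on the EMPTY arrays against -1.28 and -3.29 on the *Mir195* arrays. With both probes EMPTY replicate 2 was the highest, *Mir195* replicate 1 the next, EMPTY replicate 1 the third and *Mir195* replicate 2 the lowest. All values were well above background, and the order was the same in the authors' own table of normalized values. *Mir195* replicate 1 exceeded replicate 2 by 4.39-fold and 4.03-fold. Differences of this size or larger between the 2 *Mir195* arrays were found for 0.476% and 0.54% of all tested probes. Within EMPTY, replicate 2 exceeded replicate 1 by 1.91-fold and 1.85-fold.

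Between the viruses the log2 fold change of *Dlk1* was -0.86 ± 0.76 (95% interval -2.85 to 1.14, limma adjusted p = 0.874) with probe A_66_P117477 and -0.90 ± 0.72 (-2.78 to 0.99, limma adjusted p = 0.849) with probe A_55_P2105371. The difference between the 2 *Mir195* arrays, -2.13 and -2.01 with these probes, was larger than that between the viruses. The difference between the 2 EMPTY arrays, 0.93 and 0.89, was of about the same size as that between the viruses. Both fold changes were set by *Mir195* replicate 2. Without it they were 0.21 and 0.11, and without *Mir195* replicate 1 they were -1.92 and -1.90. In each of these fits the lone *Mir195* array is taken to vary like the EMPTY arrays. The 95% intervals from all 4 arrays include both no change and a drop of more than 2 log2 units.

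*Lepr*, the leptin receptor, was measured by 1 of its 4 probes. Probe A_55_P2177910 gave 0.33 and 0.48 on the EMPTY arrays against 0.42 and -0.04 on the *Mir195* arrays. *Mir195* replicate 2 was again the lowest, and the groups overlapped. The log2 fold change was -0.22 ± 0.20 (95% interval -0.73 to 0.30, limma adjusted p = 0.876) and turned to 0.018 without that array. Probe A_55_P2177911, annotated to the same transcript, did not stand well above background on any array, and neither did the probes for 2 other transcripts, A_55_P2192662 and A_66_P130517, with 2.46 to 6.38 intensity units among these 3 probes. The probes of *Lepr* therefore disagree on whether the gene is measured at all, and the level of 1 probe was not read as the level of the full receptor.

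*Pdgfra*, a receptor of mesenchymal cells, was not measurable. Of its 10 spots per array, 1 spot on EMPTY replicate 1 and 0 on the other arrays were well above background, and the averaged signal was 3.55 to 8.10 intensity units. *Pdgfrb*, the related receptor, was well above background on all arrays at -0.57 and -0.14 with EMPTY and -0.13 and 0.04 with *Mir195*. It was picked out after its values were seen.

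**Figure D2:**
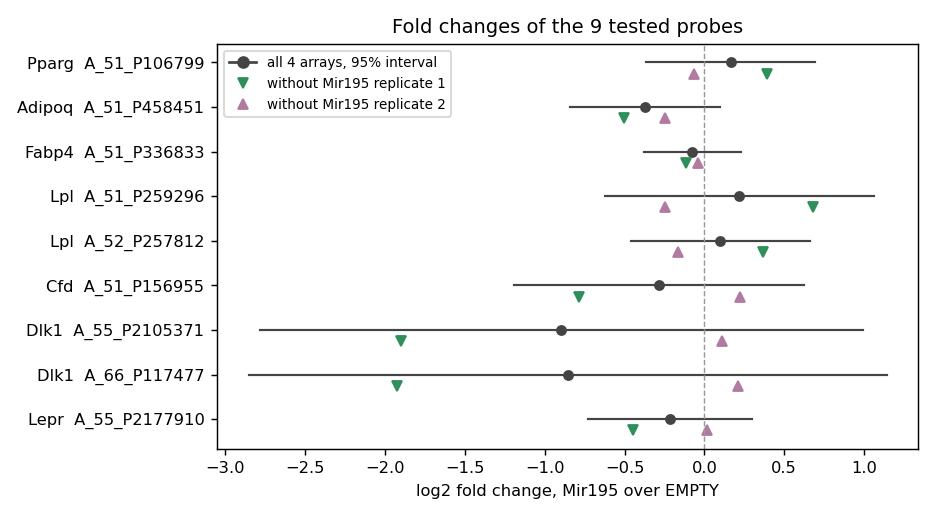
Log2 fold change of *Mir195* over EMPTY for the 9 tested probes. Dots and lines are the estimates from all 4 arrays with their 95% intervals (limma), and triangles are the estimates without *Mir195* replicate 1 or 2. All 9 intervals include 0, and for 7 probes the estimate without *Mir195* replicate 2 lies on the other side of 0.

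Across the 9 tested probes, 6 had a lower and 3 a higher mean with *Mir195*, and the median log2 fold change was -0.22, against 0.01 over all tested probes. The sign of this median turned with normexp correction, where it was 0.14, against 0.073 over all tested probes. The arrays of the viruses did not overlap for 2 of the 9 probes, against 37.6% of all tested probes, so these probes were not separated by virus more often than the array as a whole. A range of at least 1 over the 4 arrays was seen for 3 of the 9 probes, the 2 of *Dlk1* and that of *Cfd*, against 8.91% of all tested probes. *Cfd* reached it only through *Mir195* replicate 2, where it was not well above background. The same 3 probes differed by at least 1 between the 2 *Mir195* arrays, against 2.63% of all tested probes. With normexp correction and in the authors' table both counts fell to 2, the probes of *Dlk1* alone, and the shares of all tested probes were 2.3% and 0.523% with normexp correction and 8.42% and 2.51% in the authors' table. Between the 2 EMPTY arrays 0 of the 9 differed by at least 1, against 1.34%. *Mir195* replicate 2 was the highest of the 4 arrays for 3 of the 9 probes and the lowest for 6, that is at an end for each of them, against 68.2% of all tested probes. With normexp correction it was the highest for 5 and the lowest for 3. These counts are small, and probes of the same gene are not independent.

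**Figure D3:**
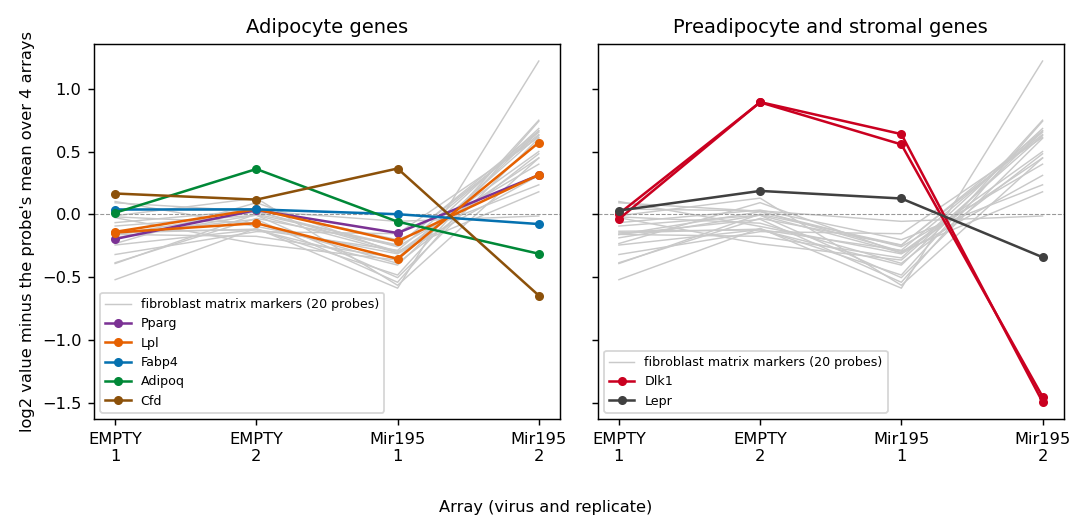
Log2 value of each tested probe minus its own mean over the 4 arrays, with lines joining the values of 1 probe. *Pparg* and *Lpl* follow the grey fibroblast matrix markers upward on *Mir195* replicate 2, whereas *Dlk1*, *Cfd*, *Lepr* and *Adipoq* lie below their mean there and *Fabp4* stays within a range of 0.12.

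Matrix genes of fibroblasts, which stroma makes but which fetal liver mesenchyme could also make, were measured beside these genes. Of 21 such genes, 18 genes with 20 probes were tested. *Mir195* replicate 2 exceeded replicate 1 for 20 of the 20 probes, by a median of 0.90, and was the highest of the 4 arrays for 19 of them, against 34% of all tested probes. With quantile normalization and with median scaling, 19 of 20 probes were higher. Within EMPTY, replicate 2 exceeded replicate 1 for 14 of the 20, with a median difference of 0.11 over all 20. *Col1a1* and *Col3a1*, the main fibrillar collagens, gave -1.05 and -3.26 on *Mir195* replicate 1 and -0.29 and -2.19 on replicate 2, and on the EMPTY arrays they gave -0.97 and -0.65 (*Col1a1*) and -2.99 and -2.98 (*Col3a1*). The summed level of the 20 probes, in units of the 75th percentile signal, was 12.2 and 12.8 on the EMPTY arrays against 11.1 and 20.8 on the *Mir195* arrays. *Lpl* and *Pparg* were thus highest on the array with the highest level of fibroblast matrix transcripts, and *Dlk1*, *Cfd*, *Lepr*, *Adipoq* and *Fabp4* were lowest on it, although with normexp correction *Adipoq* and *Fabp4* were highest on it and *Cfd* was at neither end. In bulk RNA, more cells of a type and more RNA per cell cannot be told apart, and the part of the amount of stroma in these levels was not tested.

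Other genes of stromal progenitors gave a mixed picture. For this and each further list, the probes with the highest and the lowest log2 fold change among those measured above background on all 4 arrays are named. Tested probes that missed this on some array are named where they lay beyond these values. Of 15 genes, 8 genes with 9 probes were tested and 0 passed, with a median log2 fold change of 0.15. Between the *Mir195* arrays, 6 of 9 were higher on replicate 2, against 11182 of all 23722 tested probes, and the median difference over all 9 was 0.74. *Cxcl12*, the chemokine by which stroma holds haematopoietic cells, had the highest log2 fold change, 0.41 ± 0.35 (limma adjusted p = 0.865), with 0.39, 0.47, 0.34 and 1.34 on EMPTY 1, EMPTY 2, *Mir195* 1 and *Mir195* 2. *Dpp4*, a surface peptidase of early adipose progenitors, had the lowest, -0.61 ± 0.23 (limma adjusted p = 0.593), with 0.46, 0.19, -0.01 and -0.56 on the same arrays. *Dpp4* was thus lowest on *Mir195* replicate 2, as *Dlk1* was, but highest on EMPTY replicate 1, which *Dlk1* was not. *Cxcl12* was highest on *Mir195* replicate 2, as *Lpl* was. Of the 9 probes, 6 were highest and 2 lowest on that array, against 34% and 34.3% of all tested probes.

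**Figure D4:**
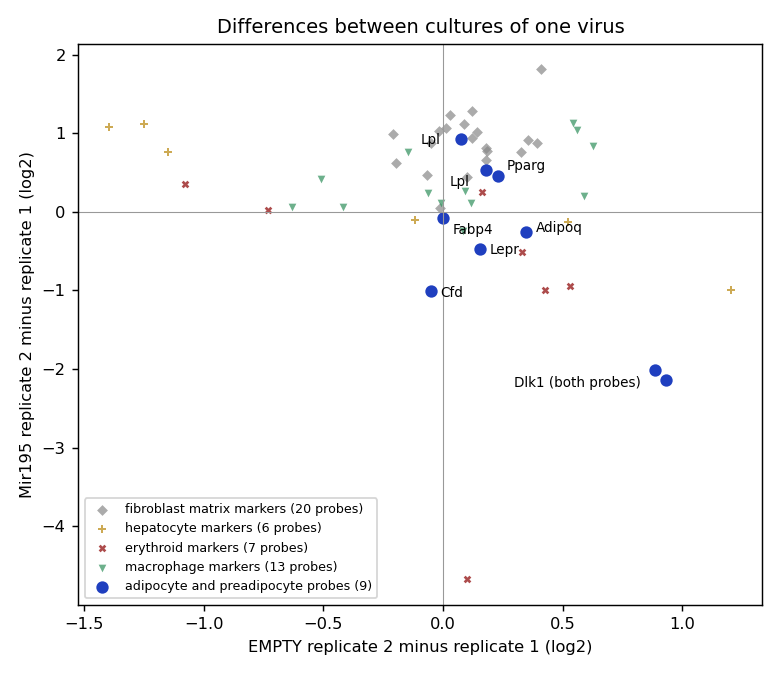
Difference between the 2 arrays of each virus, replicate 2 minus replicate 1 on the log2 scale, with EMPTY on the x axis and *Mir195* on the y axis. Blue circles are the 9 tested probes of the 10 genes, and other symbols are probes of marker lists. *Dlk1* lies at 0.89 to 0.93 on the x axis and at -2.01 to -2.13 on the y axis, apart from the fibroblast matrix markers, which all lie above 0 on the y axis.

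Cells other than stroma could also carry some of these transcripts, so their markers are given beside the results. Hepatocyte markers bear on *Dlk1*. Of 10 such genes, 4 were tested with 6 probes, 3 of which were higher on *Mir195* replicate 2 than on replicate 1, and the summed level was 2.86 and 2.10 with EMPTY and 2.01 and 2.40 with *Mir195*. *Alb*, which defines the hepatocyte, did not stand well above background on any array. *Ahsg*, the fetal liver glycoprotein fetuin-A, had the lowest log2 fold change of the list (-1.02 ± 0.52, limma adjusted p = 0.715), with -3.19 and -1.99 on the EMPTY arrays against -3.11 and -4.10 on the *Mir195* arrays. *Ahsg* was thus highest on EMPTY replicate 2 and lowest on *Mir195* replicate 2, as *Dlk1* was. Of the 6 probes, 2 were lowest on *Mir195* replicate 2, against 34.3% of all tested probes. The *Krt8* probes A_55_P2128501 and A_66_P128079 were highest on EMPTY replicate 1 and lowest on *Mir195* replicate 1. *Krt18*, an epithelial keratin, had the highest log2 fold change, 0.11 ± 0.58 (limma adjusted p = 0.983), with -1.82, -3.21, -2.95 and -1.87 on the 4 arrays, which is not the order of *Dlk1*.

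Of 10 erythroid genes, 6 were tested with 7 probes, and 4 of the 7 were lowest on *Mir195* replicate 2, against 34.3% of all tested probes. The summed level was 3.06 and 4.07 with EMPTY and 4.06 and 2.46 with *Mir195*, lowest on the array with the lowest *Dlk1*. The probe of *Hbb-b1* weighed most in this sum, with 1.18 and 1.71 on the EMPTY arrays against 1.70 and 0.76 on the *Mir195* arrays. Other probes ran differently, and 3 of the 7 were higher on *Mir195* replicate 2 than on replicate 1. *Hba-a1* was lowest on *Mir195* replicate 1, and *Ermap* probe A_55_P2153381 was highest on *Mir195* replicate 2. Of the probes that cleared background on all 4 arrays, that of *Hba-a1*, which may also bind its near-identical copy, had the lowest log2 fold change. It was -0.58 ± 0.38 (limma adjusted p = 0.809), and *Ermap* had the highest, 0.35 ± 0.15 (limma adjusted p = 0.638). *Epor*, which cleared background on 3 arrays, was lower, at -2.30 ± 1.52 (limma adjusted p = 0.807). It gave -3.36 and -3.26 on the EMPTY arrays against -3.27 and -7.94 on the *Mir195* arrays. Whether fetal liver cells of another kind contributed to the levels of *Dlk1* was not tested.

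Macrophage markers bear on *Lpl*, *Pparg*, *Cd36* and *Fabp4*. Of 12 genes, 10 were tested with 13 probes. The mean was higher with *Mir195* for 11 of the 13 (median 0.39), against 12662 of all 23722 tested probes. *Mir195* replicate 2 exceeded replicate 1 for 12 of the 13 (8 with median scaling), against 11182 of all 23722. The summed level was 10.6 and 9.01 with EMPTY and 10.5 and 11.8 with *Mir195*, highest on the array with the highest *Lpl* and *Pparg*. The bright probes of this sum did not all run alike. *Marco* gave 1.67 and 1.16 on the EMPTY arrays against 1.73 and 2.15 on the *Mir195* arrays. The brightest *Csf1r* probe, A_55_P2025078, was highest on *Mir195* replicate 1, and both *Emr1* probes were highest on EMPTY replicate 1. Of the probes that cleared background on all 4 arrays, that of *C1qc*, a complement chain of macrophages, had the highest log2 fold change, 0.85 ± 0.28 (limma adjusted p = 0.544). *Emr1* had the lowest, -0.22 ± 0.24 (limma adjusted p = 0.896). *C1qa*, which cleared background on 2 arrays, was higher than *C1qc*, at 1.43 ± 0.23 (limma adjusted p = 0.523). *Csf1r*, the receptor that defines the lineage, was well above background with its 3 probes on all arrays, at -2.41 to 1.71. The part of macrophages in the levels of *Lpl* and *Pparg* was not tested.

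Among endothelial markers 4 of 10 genes were tested with 5 probes, the summed level was 3.91 to 4.30 with EMPTY and 4.08 to 4.27 with *Mir195*, and the defining marker *Cdh5* was at -2.60, -2.44, -2.72 and -2.19. The list's highest and lowest log2 fold changes were both in *Kdr*, at 0.22 ± 0.22 and -0.10 ± 0.18 with different probes (limma adjusted p = 0.890 and 0.942). Among megakaryocyte markers 6 of 10 genes were tested with 6 probes, the summed level was 0.371 to 0.434 with EMPTY and 0.475 to 0.49 with *Mir195*, and *Pf4* was at -5.11, -4.51, -4.39 and -4.59. Of the probes that cleared background on all 4 arrays, *Gp9* had the highest log2 fold change, 0.33 ± 0.13 (limma adjusted p = 0.620). *Gp1bb* had the lowest value, 0.0074 ± 0.12 (limma adjusted p = 0.995). *Treml1* (1.14 ± 0.31, limma adjusted p = 0.523) and *Itga2b* (-1.71 ± 0.69, limma adjusted p = 0.620) lay beyond these, each clearing background on 3 arrays. *Itga2b* gave -5.41 and -5.17 on the EMPTY arrays against -5.96 and -8.04 on the *Mir195* arrays.

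Haematopoietic markers were bright with both viruses. All 10 genes were tested with 16 probes, and their summed level was 276 to 284 with EMPTY and 265 to 280 with *Mir195*. *Ptprc* (CD45), the defining marker, was at 2.20 and 1.54 with EMPTY and 1.71 and 2.57 with *Mir195*. *Flt3* had the highest log2 fold change, 0.33 ± 0.14 (limma adjusted p = 0.640), and *Laptm5* the lowest, -0.26 ± 0.18 (limma adjusted p = 0.825). *Ebf1*, the disrupted gene, gave 1.85 to 2.02 over the 4 arrays. The sources used here do not place its probe against the deleted part of the gene, so this signal checks no label, and whether it came from the mutant cells or from the stroma was not tested.

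The wider adipocyte pathway was described with 5 lists of genes, in each of which 0 probes passed the test. Of 16 adipogenic transcription factors, 12 were tested with 17 probes, 9 with a higher and 8 with a lower mean in *Mir195*, and the median was 0.03. Of the probes that cleared background on all 4 arrays, that of *Klf5*, an early factor of adipogenesis, had the highest log2 fold change, 0.31 ± 0.16 (limma adjusted p = 0.710). *Rxra*, the partner of PPARG, had the lowest, -0.23 ± 0.14 with probe A_51_P307370 (limma adjusted p = 0.796), which was 0.19 with normexp correction. *Ppargc1a* was lower still, -1.34 ± 0.27 (limma adjusted p = 0.523), but its probe cleared background on only 2 arrays. It gave -5.88 and -6.20 on the EMPTY arrays against -7.72 and -7.05 on the *Mir195* arrays. *Cebpa*, which acts with *Pparg* in maturing adipocytes, was at -0.97 and -0.90 with EMPTY and -0.73 and -1.09 with *Mir195*. It was picked out after its values were seen.

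Genes of the lipid droplet and of lipolysis had a lower mean for 12 of 15 tested probes, with a median of -0.19 against 0.01 over all tested probes. With normexp correction the median was -0.042, against 0.073 over all tested probes. The lowest log2 fold change was in *Mgll*, the lipase that ends the breakdown of stored fat, with -0.49 ± 0.38 for probe A_55_P2063312 (limma adjusted p = 0.837). That probe gave -2.68 and -3.64 on the EMPTY arrays against -3.93 and -3.37 on the *Mir195* arrays, so the groups overlapped. Its log2 fold change was -0.17 with normexp correction, -0.012 without EMPTY replicate 1 and -0.97 without EMPTY replicate 2. The highest log2 fold change was in *Ptrf*, a coat protein of caveolae, with 0.19 ± 0.29 (limma adjusted p = 0.928) and with *Mir195* replicate 2 as its highest array, at -0.91 against -1.71 to -1.42 elsewhere. None of the 15 probes passed an unadjusted p of 0.05.

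Fatty acid uptake and transport, with all 12 genes tested by 14 probes, had a median of -0.08. Of the probes that cleared background on all 4 arrays, *Apoe* had the highest log2 fold change, 0.49 ± 0.25 (limma adjusted p = 0.711). *Vldlr* had the lowest, -0.43 ± 0.22 (limma adjusted p = 0.710). *Aqp7*, which cleared background on 3 arrays, was lower, at -0.55 ± 0.22 (limma adjusted p = 0.619). With normexp correction the median was 0.060 and *Vldlr* was at -0.00020, that is close to 0, and *Vldlr* ran from -0.68 to -0.18 when 1 array was left out. Lipogenesis, the making of fatty acids and triglycerides, was tested with 22 probes of 15 genes and had a median of 0.08. *Scd1*, a desaturase that adipocytes and liver use to make monounsaturated fatty acids, had its lowest log2 fold change, -0.88 ± 0.19 (95% interval -1.37 to -0.39, limma adjusted p = 0.523). *Scd1* gave -3.84 and -3.65 on the EMPTY arrays against -4.84 and -4.42 on the *Mir195* arrays, so the groups did not overlap. With normexp correction its log2 fold change was -0.17. *Acacb* had the highest of the list, 0.46 ± 0.26 (limma adjusted p = 0.761).

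Adipokines and genes of the insulin response were tested with 11 probes of 7 genes and had a median of 0.17. *Retn*, the adipokine resistin, had the highest log2 fold change, 0.44 ± 0.20 (limma adjusted p = 0.657). *Cdh13*, a receptor of adiponectin, had the lowest, -0.61 ± 0.17 (95% interval -1.05 to -0.17, limma adjusted p = 0.523), with 0.88 and 0.56 on the EMPTY arrays against 0.01 and 0.22 on the *Mir195* arrays. In the fibroblast matrix list, with a median of 0.20, *Ctgf* had the highest log2 fold change, 0.63 ± 0.61 (limma adjusted p = 0.882), and *Col5a1* the lowest, -0.12 ± 0.35 (limma adjusted p = 0.966), which was 0.18 with normexp correction and 0.036 in the authors' table. Both were highest on *Mir195* replicate 2.

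**Figure D5:**
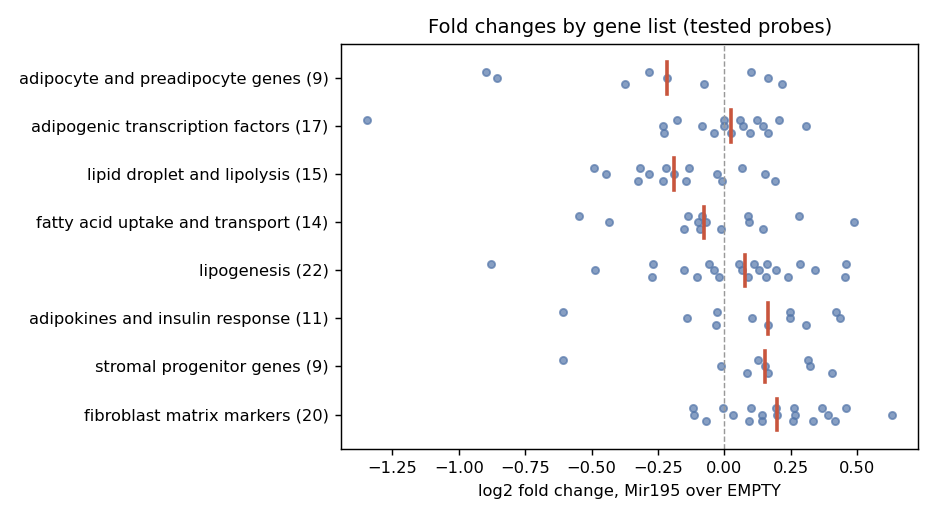
Log2 fold change of *Mir195* over EMPTY for each tested probe of the 10 genes and of 7 wider lists, with the number of probes in parentheses. Red bars are the medians, which lie between -0.22 and 0.20, and no probe passed the adjusted test.

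Genes whose levels ran most like those of *Dlk1* over the 4 arrays were sought among 22566 probes of other genes that were well above background on all arrays, by the smallest root mean square difference between profiles centred on their own mean. The nearest to both *Dlk1* probes were *Galnt14* (0.24 and 0.28), *Gm9853* (0.24 and 0.28) and *Clec2d* (0.26 and 0.28). *Galnt14* gave -3.96 and -3.48 on the EMPTY arrays against -3.78 and -5.27 on the *Mir195* arrays. With 4 arrays such likeness describes these samples only.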

How the data were processed

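RNA from 4 samples, 2 infected with EMPTY and 2 with *Mir195*, was hybridised to Agilent Whole Mouse Genome 4x44K v2 arrays with 1 dye (Cy3), and samples were grouped by their titles. The authors deposited spot intensity from Agilent Feature Extraction, 9.1.3.1 per the file headers and 11.5.1.1 per the submitters' processing notes, after background subtraction and detrending, with a small positive surrogate for dim spots. A second table from the authors holds 1 log2 value per probe and array, scaled to the 75th percentile in GeneSpring. These correlated with the values used here at r = 0.998 on each array. The number of arrays limits the precision.

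From 43020 spots that were not controls, log2 intensity was averaged over the spots of each of 39429 probes, and each array's 75th percentile was subtracted. Probes free of outlier spots and well above background on the 2 arrays of 1 virus or of both were tested with lmFit and eBayes (limma 3.58.1, R 4.3.3), two-sided, with Benjamini-Hochberg adjustment over all 23722 tested probes and a threshold of 0.05. The step was tested on simulated data. An exact permutation test of 2 against 2 cannot go below p = 0.333. Alternatives covered background correction (normexp with an offset of 50), scaling, the authors' table, the brightness filter, the variance model, the replicate block and leaving out each array. The members and lists were chosen with earlier results of these data known. Named were all probes of the 10 genes, the highest and lowest log2 fold change of each wider list among probes measured above background on every array, the defining markers and *Ebf1*. Tested probes with values beyond those extremes were named too. Genes of like pattern were sought for probes of the 10 genes that had a range of at least 1 and were well above background on all 4 arrays, among all tested probes of other genes well above background on all 4. Gene positions are from RefSeq, GRCm38.p6. *Adig*, on 1 of the lists, had no probe under that name.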

Additional observations from a re-analysis of the deposited data

How the results depend on the processing

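The number of probes called between the viruses was 0 under every other setting run except for 3 with median scaling, 5 with the replicate block and 0 to 880 when 1 array was left out, 880 without *Mir195* replicate 1 and 3 without *Mir195* replicate 2. None of the 10 genes was called except both *Dlk1* probes without *Mir195* replicate 1. The replicate number pairs nothing in the labels, and the deviations of same-numbered arrays correlated at -0.101, so the block was not used; with it none of the 9 probes was called, and the lowest adjusted p among them was 0.835. Crossing the numbers, a choice made after seeing the data, gave 0 calls. When 1 array was left out, the lone sample of its virus was taken to vary like the other group. The log2 fold changes then ran from -0.067 to 0.39 for *Pparg*, -0.25 to 0.68 and -0.165 to 0.365 for the *Lpl* probes A_51_P259296 and A_52_P257812, -0.79 to 0.22 for *Cfd*, -1.90 to 0.11 and -1.92 to 0.21 for the *Dlk1* probes A_55_P2105371 and A_66_P117477 and -0.45 to 0.018 for *Lepr*. The median of the 9 probes was 0.14 with normexp correction and ran from -0.45 to -0.038 when 1 array was left out. Without *Mir195* replicate 2 these 7 single-probe values turned sign.

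With normexp correction the value was 0.14 for *Adipoq*, 0.19 for *Fabp4*, 0.22 for *Cfd*, 0.19 for *Rxra* and 0.18 for *Col5a1*, all against the reported direction, and *Col5a1* was 0.036 in the authors' table. Under this correction *Plin1*, not well above background on any array, also read higher with *Mir195*, so these turns were not read as rises. With normexp correction the value shrank to -0.44 for *Ahsg*, -0.22 for *Hba-a1* and 0.525 for *C1qc*. *Gp1bb* was -0.072 with quantile normalization and -0.092 with median scaling. When 1 array was left out, values ran from -0.21 to 0.59 for *Ptrf*, -0.095 to 0.91 for *Cxcl12*, -0.27 to 1.54 for *Ctgf*, -0.62 to 0.39 for *Col5a1*, -0.53 to 0.098 for *Emr1*, -0.0098 to 0.44 and -0.31 to 0.12 for the *Kdr* probes, -0.037 to 0.052 for *Gp1bb* and -0.59 to 0.80 for *Krt18*. Causes were not tested. Among the 13 wider lists the median moved by more than its spread between replicates in 29 of 182 cases. Low signal over background limits *Adipoq*, *Fabp4* and *Cfd*, which turn sign with normexp correction, left *Cd36* untested, and gives no level for *Plin1*, *Pdgfra* and 3 *Lepr* probes.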
